A study of Mus musculus with 4 samples.

Results

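The genes described here are 56 developmental regulators outside the Hox clusters, most of them homeobox genes, measured in E14 mouse embryonic stem cells with and without knockdown of Kdm2b. They were taken from a fixed list of symbols, through probe sets whose platform annotation gives exactly 1 symbol. All 56 were measured, among 19938 genes in the whole series. They were grouped into families, with 8 Nkx, 8 Pax, 6 Lhx, 5 Dlx and 4 Irx genes, the 3 sine oculis-related genes Six2, Six3 and Six6, and 22 further genes. Pou3f2 had a further probe set, so the one with the highest mean over the arrays was kept, and every other gene had 1. Per the labels, all 4 samples are total RNA of E14, a line of inbred 129 strain. Their medium on gelatin held 15% serum, with leukemia inhibitory factor at 1000 units/ml. The cells were infected with lentiviral vectors at 10 MOI, and puromycin was given at 2 µg/ml from 48 h on. The groups are control (2 arrays) and Kdm2b knockdown (2 arrays), on Affymetrix MoGene-1_0-st-v1 arrays. What the control vector carried, how many sequences targeted Kdm2b and whether the replicates were separate cultures were not given in the sources used here. The p-values therefore reflect the differences among these 4 arrays alone, and part of that may be technical.

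Homeobox genes encode transcription factors that bind DNA through a homeodomain, and they lay out body regions and cell types in the embryo. Among the Pax proteins, whose shared feature is the paired domain, Pax1 and Pax9 carry no homeodomain and Pax2, Pax5 and Pax8 only a part of one, so the label of the group holds for these in part. In embryonic stem cells such genes are known as classic targets of Polycomb repression, with CpG islands that carry histone marks of both activation and silencing. Kdm2b has a zinc finger that binds unmethylated CpG and is a subunit of a variant Polycomb repressive complex 1. The comparison of knockdown with control addresses, on the side of expression, the question in the series' title, whether Kdm2b holds lineage genes in check through that complex.

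Kdm2b itself read 10.74 and 10.64 in control and 9.20 and 9.19 in knockdown on the log2 scale, a change of -1.50 (SE of 0.066, limma adjusted p = 0.0039). Array medians lay between 8.49 and 8.55. All 16 stem cell markers examined lay above 8.52, the median of the mean levels over all probe sets, which serves below as the cut between brighter and dimmer genes. A probe set's brightness depends on its probes as well, so it ranks probe sets and not the genes' RNA levels. Their mean log2 value was 12.84 to 12.86 in control and 12.74 to 12.79 in knockdown. Of the 16, Lin28a was lower, 0 were higher and 15 neither, beside 7.19% lower and 5.00% higher of all genes. At an unadjusted limma p under 0.05, 2 rose and 5 fell (12.5% and 31.25%), beside 15.1% and 14.7% of all genes. A positive change was found for 5 of the 16, beside 56.9% of all genes.

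After Kdm2b knockdown 8 of the 56 regulators were higher, 1 was lower and 47 were neither, where called means an adjusted p under 0.05 over all genes. Over all genes 5.00% were called higher and 7.19% lower, against 14.3% and 1.79% of the regulators. The 8 were Nkx2-9, Pax8, En2, Meis1, Nkx6-2, Pou4f1, En1 and Evx1, and Pax6 was the lower one. The changes were small apart from a few, with a median log2 fold change of 0.12 over the 56, beside 0.03 over all genes. Of the 56, 50 had a positive log2 fold change (89.3%, beside 56.9% of all genes), which came to 46 under quantile normalization and 47 with arrays centred on their medians. Both knockdown arrays lay above both control arrays for 36 of the 56, where this held for 33.8% of all genes. They lay below for 3 (Pax6, Emx2 and Gsx2), where this held for 25.0% of all genes. For 31 of the 56 the change was larger than the gap between the replicates of either group, or 55.4%, beside 48.3% of all genes. These are bulk samples, in which more cells of a type and more RNA per cell cannot be told apart.

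**Figure D1:**
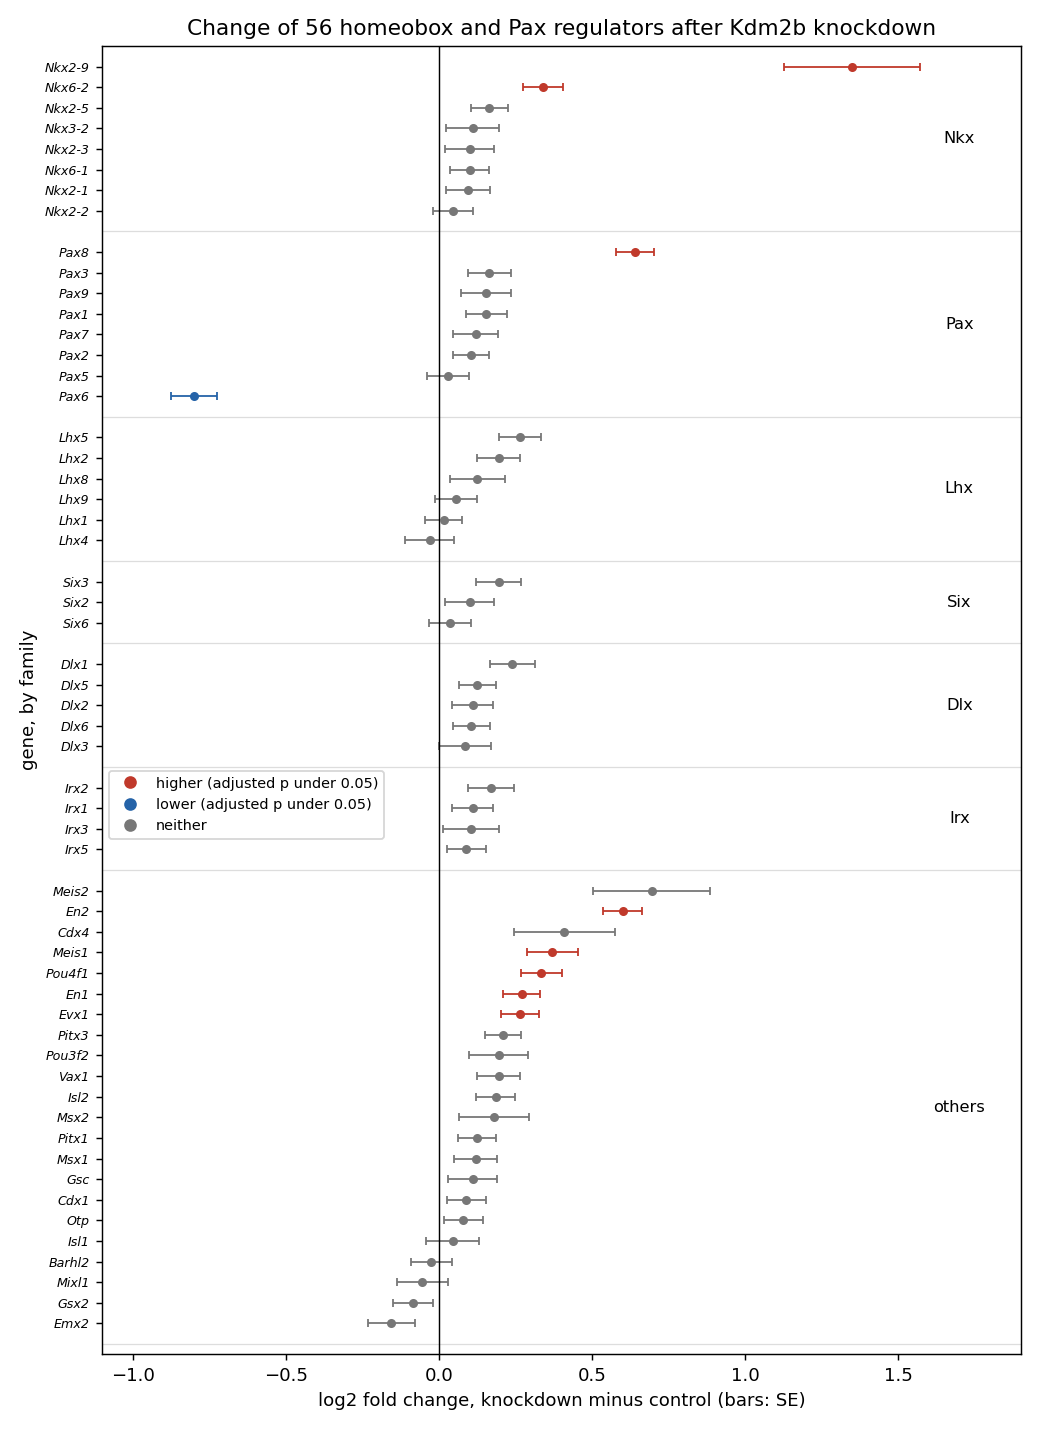
Log2 fold change of each of the 56 genes, knockdown minus control, by family, with limma's standard error as bars. Points for most genes sit slightly to the right of 0, Nkx2-9 lies farthest to the right at 1.35, and Pax6 stands alone on the left at -0.80.

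The Nkx genes encode homeodomain factors of the NK class, which act in foregut, heart, ventral neural tube and oligodendrocytes. Of 8 measured, 2 were higher, 0 lower and 6 neither, beside 5.00% higher and 7.19% lower of all genes. The median log2 fold change was 0.11. Nkx2-9, a gene of the ventral neural tube, read 9.69 and 9.76 on the log2 scale in control and 11.44 and 10.71 in knockdown. Its groups did not overlap, although the knockdown arrays stood 0.73 apart. The log2 fold change was 1.35 (SE of 0.22, limma adjusted p = 0.019), or 2.55-fold. Nkx2-9 also had the highest mean level of the family's probe sets. Without knockdown replicate 1 its change was 0.99 and without knockdown replicate 2 it was 1.72. Because its change was the largest rise among the 56, its promoter window is shown, from RefSeq in GRCm38.p6, at chr12:56613235-56613534 on the minus strand, with each CpG in capitals.
Nkx2-9: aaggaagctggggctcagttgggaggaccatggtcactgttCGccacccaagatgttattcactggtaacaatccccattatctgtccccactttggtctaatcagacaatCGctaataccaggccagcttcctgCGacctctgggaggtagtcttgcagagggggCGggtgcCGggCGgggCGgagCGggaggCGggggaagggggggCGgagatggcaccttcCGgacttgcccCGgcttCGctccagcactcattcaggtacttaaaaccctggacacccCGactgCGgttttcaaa

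The window runs from 250 bases before the annotated start to 50 bases after it and holds 15 CpGs, with a GC content of 59.3% and an observed to expected CpG ratio of 0.57. The other called Nkx gene, Nkx6-2, which acts in ventral neural progenitors and oligodendrocytes, read 8.95 and 8.93 in control and 9.23 and 9.33 in knockdown, a log2 fold change of 0.34 (SE of 0.066, limma adjusted p = 0.0297). The lowest knockdown array was above the highest control array. Its relative Nkx6-1, a gene of motor neuron progenitors and pancreatic beta cells, had a change of 0.10 (95% interval -0.05 to 0.25). The cardiac regulator Nkx2-5 read 9.87 and 9.85 in control and 10.02 and 10.03 in knockdown. These groups did not overlap either, but the change of 0.17 did not pass (limma adjusted p = 0.131). Nkx2-1, of thyroid, lung and forebrain, had a log2 fold change of 0.10, and Nkx2-2, of ventral neural tube and pancreas, of 0.05. Nkx2-3, of gut and spleen, stood at 0.10, and Nkx3-2, of the skeleton, at 0.11, and the arrays of the groups overlapped for all 4 of these genes. Among the 8 Nkx genes the knockdown arrays lay above the control arrays for 4, beside 33.8% of all genes.

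**Figure D2:**
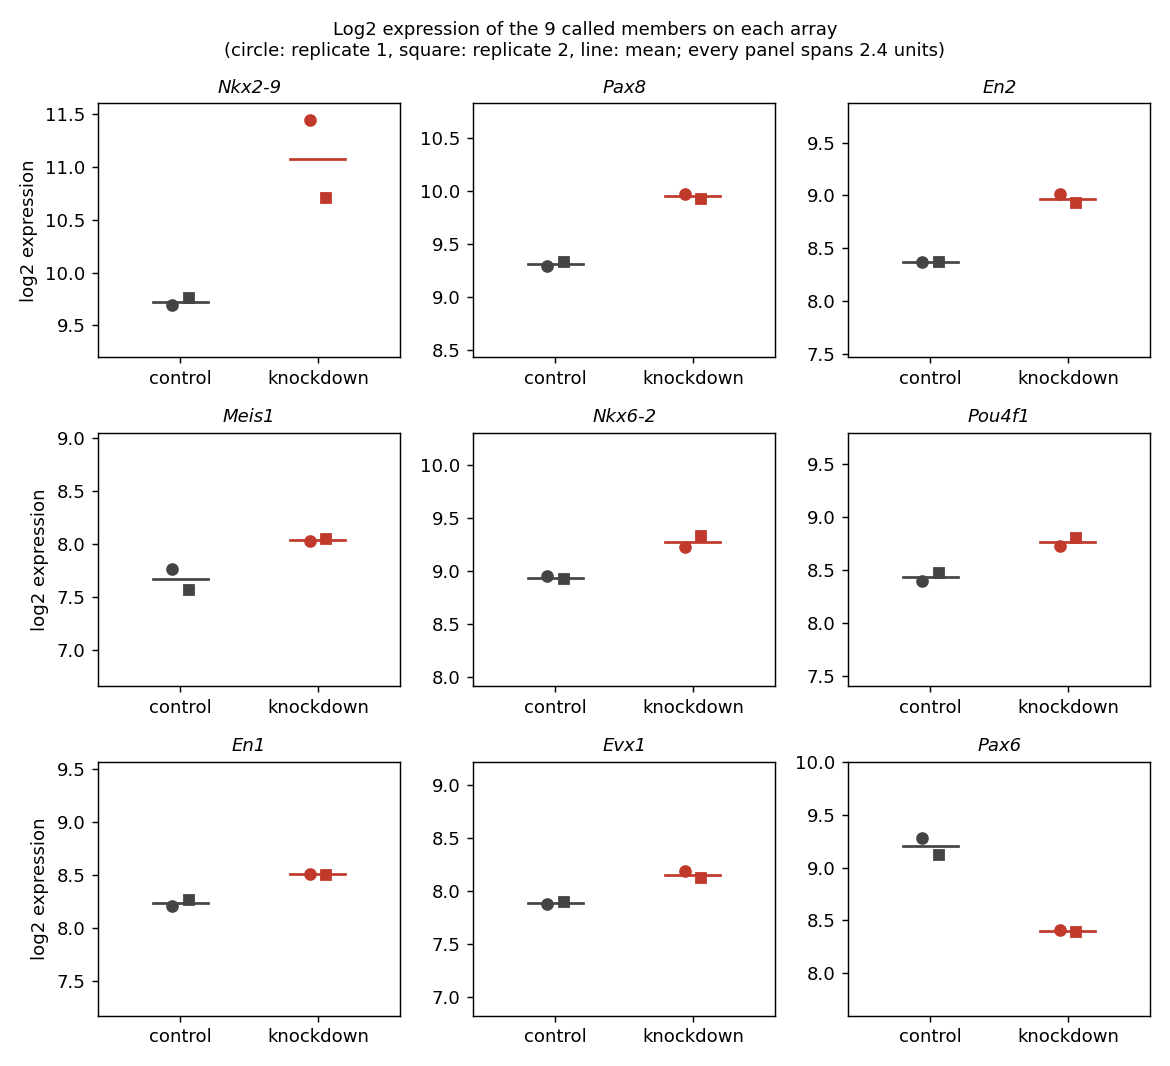
Log2 expression of the 9 called genes on each array, control in grey and knockdown in red, with replicate 1 as a circle, replicate 2 as a square and the group mean as a line. The knockdown arrays of Nkx2-9 are 0.73 apart, while those of Pax6, En1 and Meis1 are nearly level, at gaps of 0.02, 0.01 and 0.02.

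The Pax genes were the family whose called members went in both directions. Of 8 measured, Pax8 was higher, Pax6 lower and 6 neither, with a median of 0.14, beside 5.00% higher and 7.19% lower of all genes. Pax8, a regulator of thyroid and kidney and the brightest probe set of the family, read 9.29 and 9.33 in control and 9.97 and 9.93 in knockdown. Its log2 fold change was 0.64 (SE of 0.062, limma adjusted p = 0.00666), a 1.56-fold rise. Pax6, a regulator of eye, forebrain and pancreas, read 9.28 and 9.12 in control and 8.41 and 8.39 in knockdown. Both knockdown arrays were low, and the groups did not overlap. The log2 fold change was -0.80 (SE of 0.076, limma adjusted p = 0.00649), which is 1.74-fold down. Pax6 had the smallest p-value of the 56 genes, followed by Pax8. Its promoter windows are shown because it was the only called member that fell. RefSeq gives it a pair of windows in GRCm38.p6 on the plus strand, an upstream one at chr2:105668646-105668945 and a downstream one at chr2:105682213-105682512, with each CpG in capitals.
Pax6 upstream window: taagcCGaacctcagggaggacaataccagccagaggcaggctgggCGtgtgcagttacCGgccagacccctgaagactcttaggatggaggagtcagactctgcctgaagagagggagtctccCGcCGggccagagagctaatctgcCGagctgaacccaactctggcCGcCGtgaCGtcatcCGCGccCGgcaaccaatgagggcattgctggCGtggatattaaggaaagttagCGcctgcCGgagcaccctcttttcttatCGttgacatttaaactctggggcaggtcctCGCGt
Pax6 downstream window: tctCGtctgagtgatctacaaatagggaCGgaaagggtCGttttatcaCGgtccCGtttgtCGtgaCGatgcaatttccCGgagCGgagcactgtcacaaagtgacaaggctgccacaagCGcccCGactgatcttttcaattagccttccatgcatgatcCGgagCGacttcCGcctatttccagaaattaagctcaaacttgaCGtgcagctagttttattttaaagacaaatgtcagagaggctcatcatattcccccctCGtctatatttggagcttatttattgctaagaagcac

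The upstream window holds 18 CpGs with a GC content of 58.7%, and the downstream one 16 CpGs with a GC content of 46.3%. Their observed to expected CpG ratios are 0.70 and 1.00, both above that of Nkx2-9. The remaining Pax genes had changes from 0.03 to 0.17. Pax3 (0.17) and Pax7 (0.12) act in neural crest and muscle progenitors, Pax1 (0.16) and Pax9 (0.16) in the vertebral column and pharyngeal pouches. Pax2 (0.11) acts in kidney and midbrain, and Pax5 (0.03) commits B cells. For 5 of these 6 the knockdown arrays lay above the control arrays, beside 33.8% of all genes, and for Pax5 they overlapped. The arrays of Pax3 were 7.58 and 7.46 in control and 7.68 and 7.69 in knockdown, with an adjusted p of 0.176 in limma.

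The LIM homeobox genes specify neurons and, in the case of Lhx1, the head organizer and kidney. Of 6 measured, 0 were higher, 0 lower and 6 neither, with a median of 0.09. An unadjusted p under 0.05 was found for 2 of the 6, beside 29.8% of all genes in either direction. Both rose, and 15.1% of all genes had such a p with a positive change. Lhx5, of the forebrain and spinal cord, read 6.80 and 6.91 in control and 7.12 and 7.12 in knockdown. The groups did not overlap, and its change of 0.27 (SE 0.067) came nearest to the threshold in the family, with an adjusted p of 0.0584 in limma. Lhx2, of eye and forebrain, had a change of 0.20 (limma adjusted p = 0.128) and was likewise higher on both knockdown arrays. Lhx4, of pituitary and motor neurons and the brightest probe set of the family, read 9.01 and 8.83 in control and 8.90 and 8.88 in knockdown. Its change of -0.03 lay within the gap between the control arrays. Lhx1 (0.02), Lhx8 (0.13) and Lhx9 (0.06) overlapped between the groups too. Knockdown arrays lay above control arrays for 2 of the 6, beside 33.8% of all genes.

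The genes Six2, Six3 and Six6 act in eye, forebrain and kidney. Of 3 measured, 0 were higher, 0 lower and 3 neither, with a median of 0.10. The 1 with an unadjusted p under 0.05, Six3, rose, beside 15.1% of all genes with a positive change and 29.8% in either direction. Six3, of forebrain and lens, read 8.03 and 8.17 in control and 8.32 and 8.27 in knockdown, a change of 0.20 (SE of 0.073, limma adjusted p = 0.144). Its groups did not overlap, although the control arrays were 0.14 apart. Six2, of the nephron progenitors and the brightest of the family's probe sets, read 8.40 and 8.47 in control and 8.45 and 8.62 in knockdown, and Six6, of retina and pituitary, had a change of 0.04. Both overlapped between the groups, which left 1 of 3 with the knockdown arrays above, beside 33.8% of all genes.

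The Dlx genes pattern the branchial arches and the inhibitory neurons of the forebrain. Of 5 measured, 0 were higher, 0 lower and 5 neither, with a median of 0.11. Only 1 of the 5, Dlx1, had an unadjusted p under 0.05, and it rose. Over all genes 15.1% had such a p with a positive change and 29.8% in either direction. Dlx1 read 8.19 and 8.30 in control and 8.53 and 8.44 in knockdown, a change of 0.24 (SE of 0.072, limma adjusted p = 0.087). Dlx2 (0.11), Dlx5 (0.13) and Dlx6 (0.11) were also higher on both knockdown arrays, with 95% intervals that included 0. In this family that position held for 4 of 5 genes, beside 33.8% of all genes. Dlx3, of placenta and skin and the brightest probe set of the family, read 8.47 and 8.59 in control and 8.70 and 8.53 in knockdown. Its groups overlapped, and its change was 0.09. The 95% intervals of the 5 genes together ran from -0.12 to 0.42.

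The Iroquois genes encode homeodomain factors of the TALE class that divide neural tube, heart and limb into territories. Of 4 measured, 0 were higher, 0 lower and 4 neither, with a median of 0.11, and 0 of the 4 had an unadjusted p under 0.05, beside 29.8% of all genes. The brightest and most changed of them, Irx2, read 9.75 and 9.73 in control and 9.99 and 9.83 in knockdown, a change of 0.17 (SE of 0.076, limma adjusted p = 0.199). Irx1 (0.11) and Irx5 (0.09) were higher on both knockdown arrays, whereas Irx3 read 7.96 on knockdown replicate 1 and 7.73 on knockdown replicate 2, the latter between its control values of 7.76 and 7.72. The knockdown arrays thus lay above for 3 of the 4, beside 33.8% of all genes. The intervals of the 4 genes ran from -0.12 to 0.36.

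Of the 22 further genes, 5 were higher, 0 lower and 17 neither, with a median of 0.18, beside 5.00% higher and 7.19% lower of all genes. Both engrailed genes, which position the midbrain and hindbrain, were among the 5. En2 read 8.37 and 8.37 in control and 9.01 and 8.93 in knockdown, a log2 fold change of 0.60 (SE of 0.064, limma adjusted p = 0.00786) or 1.52-fold. En1 read 8.21 and 8.26 in control and 8.51 and 8.50 in knockdown, a change of 0.27 (SE of 0.061, limma adjusted p = 0.0433). This call was lost under quantile normalization (0.0682) and under centring (0.0641). On each gene the knockdown arrays lay above the control arrays by more than either group's own gap.

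The TALE gene Meis1, a cofactor of Hox proteins in blood and limb, read 7.77 and 7.57 in control and 8.03 and 8.05 in knockdown, a change of 0.37 (SE of 0.083, limma adjusted p = 0.0426), with adjusted p-values of 0.0691 and 0.0556 under the same scalings. Its paralog Meis2 had the largest change of these 22 genes but did not pass. Meis2 read 8.95 and 8.34 in control and 9.27 and 9.41 in knockdown, a change of 0.70 (SE of 0.19, limma adjusted p = 0.0713). The spread sat in the control arrays, 0.61 apart, so that the change came to 0.39 when control replicate 2 was left out and to 1.00 when replicate 1 was.

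Among the POU genes, Pou4f1, of sensory neurons, read 8.39 and 8.47 in control and 8.73 and 8.80 in knockdown, a change of 0.34 (SE of 0.067, limma adjusted p = 0.0313). Pou3f2, a gene of neural progenitors, had a change of 0.20 (limma adjusted p = 0.238), and its dimmer probe set of 0.11. Evx1, of the posterior primitive streak and spinal interneurons, read 7.88 and 7.90 in control and 8.19 and 8.12 in knockdown. Its change of 0.27 (SE 0.063) lay close to the threshold, with an adjusted p of 0.0489 in limma, against 0.0842 and 0.0715 under these scalings and 0.0505 when every probe set was tested. The caudal gene Cdx4, of the posterior axis and blood, read 6.60 and 6.63 in control and 7.29 and 6.76 in knockdown. Knockdown replicate 1 carried most of its change of 0.41 (limma adjusted p = 0.165), which was 0.15 without that array and 0.68 without the other knockdown array. Cdx1, of gut and paraxial mesoderm, stood at 0.09, and Gsx2, of the ventral forebrain, at -0.09.

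The other genes of the group gave changes within 0.21 of 0. Otp, of the hypothalamus and the brightest probe set among these 22, read 9.76 and 9.68 in control and 9.81 and 9.79 in knockdown, a change of 0.08. Pitx3 (0.21), of lens and dopamine neurons, read 9.16 and 9.15 in control and 9.37 and 9.36 in knockdown, with an adjusted p of 0.0759 in limma, and 0.0498 once dim genes were removed before the fit. Pitx1 (0.13), of the hindlimb, and Vax1 (0.20), of the optic stalk, also lay higher on both knockdown arrays. So did the motor neuron gene Isl2 (0.19), whereas Isl1 (0.05), of motor neurons and cardiac progenitors, overlapped. Msx1 (0.12) and Msx2 (0.18) are targets of BMP signalling in limb and skull, and the control arrays of Msx2 were 0.34 apart. Gsc (0.11) and Mixl1 (-0.06), of the organizer and primitive streak, gave no call. The call of Evx1 above was itself lost under both scalings. Barhl2 (-0.03), of retina and spinal cord, and Emx2 (-0.16), of cortex and urogenital tract, complete the group. Emx2 read 7.16 and 6.99 in control and 6.93 and 6.91 in knockdown, the largest fall among the uncalled genes. Across the 22 further genes the knockdown arrays lay above for 16 and below for 2, beside 33.8% and 25.0% of all genes.

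Level and change were then set side by side. Of the 56, 25 had a mean log2 value above the cut of 8.52 and 31 did not. This split does not match the levels within each side. Above the cut the median level was 8.885 for the regulators and 10.49 for all genes. At or below it the medians were 8.15 and 7.285. Among the 25 brighter regulators 5 were higher and 1 lower, beside 6.65% and 10.8% of all genes above the cut. Both knockdown arrays lay above both control arrays for 21 of the 25, or 84.0%, beside 32.1% of all genes there, and below for 1 (Pax6), beside 34.4%. Among the 31 dimmer ones 3 were higher (Meis1, En1 and Evx1) and 0 lower, beside 2.74% and 2.30% of genes at or below the cut. The knockdown arrays lay above for 15 of these 31, or 48.4%, beside 36.0% of genes at or below the cut, and below for 2 (Emx2 and Gsx2), beside 12.2%. Of the 47 uncalled regulators of either level, 10 had an unadjusted p under 0.05, or 21.3%, which is close to the 20.0% of all uncalled genes. All 10 changes were positive, where 11.5% of all uncalled genes had such a p with a positive change and 8.51% with a negative one. The medians were 0.13 for the brighter and 0.11 for the dimmer regulators, and -0.005 and 0.06 for all genes above and below the cut. Below the cut 90.3% of the regulators and 68.1% of all genes had a positive change, and above it 88.0% and 48.7%. Odorant receptor genes, which stem cells are not known to use, had a median of 0.06 over 1027 genes, and 70.9% of their changes were positive. Of these genes 8 were called higher (0.78%) and 0 lower, beside 2.74% and 2.30% of genes at or below the cut. Their median level of 5.95 lay below the 8.15 of the dimmer regulators.

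**Figure D3:**
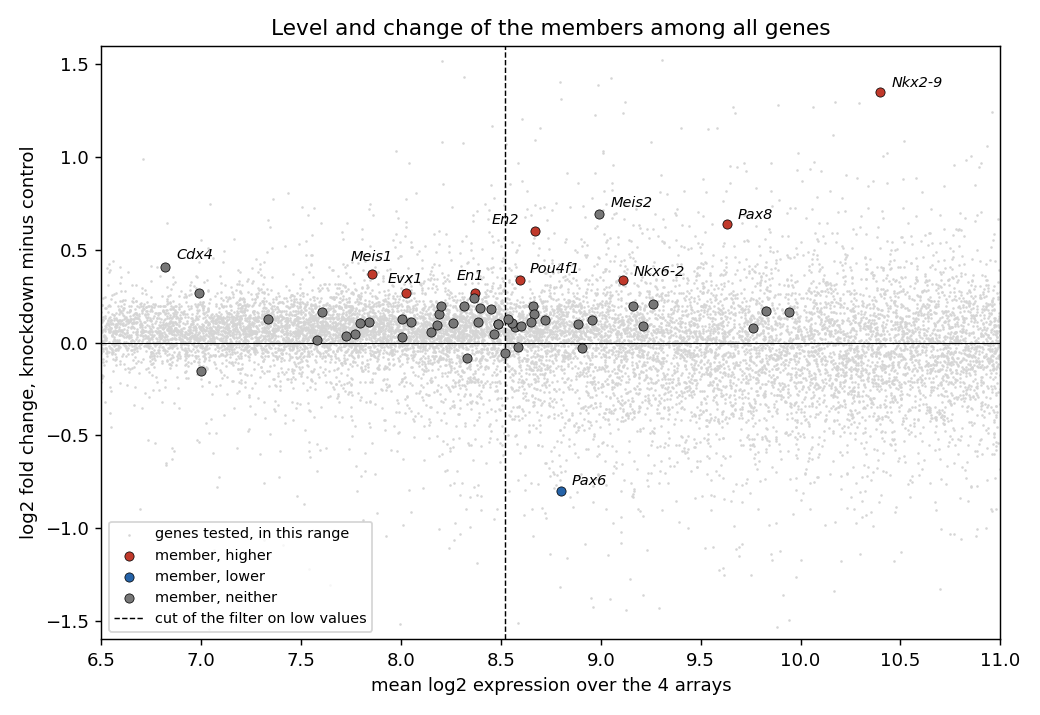
Mean log2 expression over the 4 arrays (horizontal) against the log2 fold change (vertical) for the 56 regulators, with the other genes tested that fall in this range in light grey. The dashed line is the cut of 8.52, and Nkx2-9, at a mean of 10.40, has the highest mean and the largest change of the 56 probe sets.

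Several of these genes lie next to each other in the genome. By their RefSeq positions, 8 pairs of members are direct neighbours among protein-coding genes, with 15 genes in all. Nkx2-9 lies between Nkx2-1 and Pax9, whose changes were 0.10 and 0.16 beside its own 1.35. In the other 6 pairs neither gene was called, and their changes differed by 0.015 (Irx3 and Irx5) to 0.13 (Dlx1 and Dlx2). The pairs Dlx5 and Dlx6 (0.13 and 0.11), Irx1 and Irx2 (0.11 and 0.17), Six2 and Six3 (0.10 and 0.20) and Nkx2-2 and Pax1 (0.05 and 0.16) lay between these.

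The CpG content of the promoters was read from the RefSeq windows, which cover 45 of the 56 genes with 49 windows. The genes without one were Cdx1, Dlx3, Dlx5, Dlx6, En2, Irx1, Irx5, Lhx5, Mixl1, Pax3 and Pitx1. The letters CG, which read the same on both strands, occurred in all 49 windows, and in 96.2% of 19115 windows of genes tested. The median was 20 CpGs per window for the regulators and 15 for the genes tested. Windows with a GC content above 50% and an observed to expected ratio above 0.6 made up 63.3% of the regulators' windows and 48.3% of all. Among the called genes the count ran from 7 (Pax8) to 57 (Pou4f1), with 12 for Evx1, 15 for Meis1 and Nkx2-9, 23 for En1 and 32 for Nkx6-2. The median was 16 for the 9 windows of called genes and 21 for the 40 of uncalled ones. Both limits on GC content and ratio were passed by 44.4% of those 9 and 67.5% of those 40, beside 48.3% of all. Those 9 windows cover 8 genes, as both windows of Pax6 count and En2 has none. Uncalled genes with many CpGs included Barhl2 (42, change -0.03) and Nkx6-1 (40, change 0.10).

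**Figure D4:**
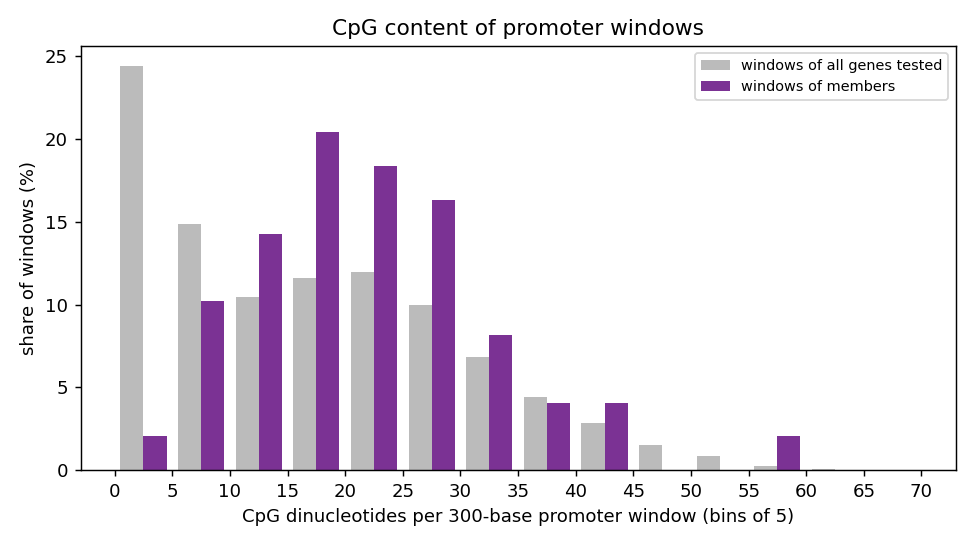
Share of promoter windows (percent) by number of CpG dinucleotides per window of 300 bases, in bins of 5, for genes tested (grey) and for the regulators (purple). Of the regulators' windows 2.04% hold fewer than 5 CpGs, beside 24.4% of the windows of genes tested.

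Other homeobox genes outside the Hox clusters were followed as a second list, of which 94 of 112 were measured. The second list had 7 higher, 4 lower and 83 neither, or 7.45% and 4.26%, beside 5.00% and 7.19% of all genes. Its median was 0.06, beside 0.03 over all genes, and 70 changes were positive (74.5%, beside 56.9% of all genes). Gbx2, of the hindbrain and of stem cells, rose by 1.07 (SE of 0.11, limma adjusted p = 0.00713), Zfhx2 by 0.97 and Pou2f3, of tuft cells, by 0.87. Hopx, which lacks DNA binding of its own, rose by 0.83, the trophectoderm regulator Cdx2 by 0.35 and Mkx, of tendon, by 0.30. Hesx1, of the anterior forebrain and pituitary, fell by 0.93 (SE of 0.11, limma adjusted p = 0.00882), Six4 by 0.53, Pbx3 by 0.48 and Hdx by 0.39. In families with members on both lists, Cdx2 (0.35) passed where Cdx1 (0.09) and Cdx4 (0.41) did not. The change of Cdx4 was larger than that of Cdx2, but its knockdown arrays were 0.53 apart, those of Cdx2 0.03. Six4 fell where Six2, Six3 and Six6 had changes of 0.10, 0.20 and 0.04. The difference between such relatives was not tested.

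Markers of several cell types were read on the same arrays. Of 13 neural progenitor markers, Pax6 itself included, Nes was higher, Pax6 lower and 11 neither, and their mean log2 value was 8.71 in both control arrays and 8.72 to 8.82 in knockdown. Of 13 mesoderm and streak markers 4 were higher (Tbx20, Tcf15, Eomes and Kdr), Myl7 was lower and 8 neither, with mean values of 8.59 to 8.63 and 8.85 to 8.90. The endoderm list joined definitive and extraembryonic endoderm. Of its 12 markers 4 were higher (Gata6, Dab2, Col4a1 and Sox17), 0 lower and 8 neither. Mean values were 8.50 to 8.61 in control and 8.95 to 9.22 in knockdown. Of 18 fibroblast and feeder markers 1 was higher, 2 lower and 15 neither, with 8.68 to 8.69 and 8.66 to 8.68. Higher and lower calls made up 7.69% and 7.69% of the neural list, and 30.8% and 7.69% of the mesoderm list. For the endoderm list the shares were 33.3% and 0%, and for the fibroblast list 5.56% and 11.1%. Over all genes they were 5.00% and 7.19%. No marker is at 0 on this scale. The part of such cells in the changes of the regulators was not tested.

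With any array left out, or with the replicate number as a block, limma called 0 of all 19938 genes, so these fits, with 1 residual degree of freedom, do not bear on the single calls. At an unadjusted p under 0.05 they held 10 to 18 of the 56, from 17.9% to 32.1%, beside 17.5% to 27.1% of all genes. Without knockdown replicate 1 and with the block the regulators' share was about that of all genes, with both directions pooled. The changes of the 9 called genes kept their directions when an array was left out, for example from 0.62 to 0.66 for Pax8, from 0.56 to 0.64 for En2 and from -0.88 to -0.72 for Pax6. The adjusted p-values of the 9 then ran from 0.196 to 0.299 in limma. Under quantile normalization and under centring of the arrays on their medians, the same 6 of the 9 were called, namely Nkx2-9, Pax8, En2, Nkx6-2, Pou4f1 and Pax6.

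**Figure D5:**
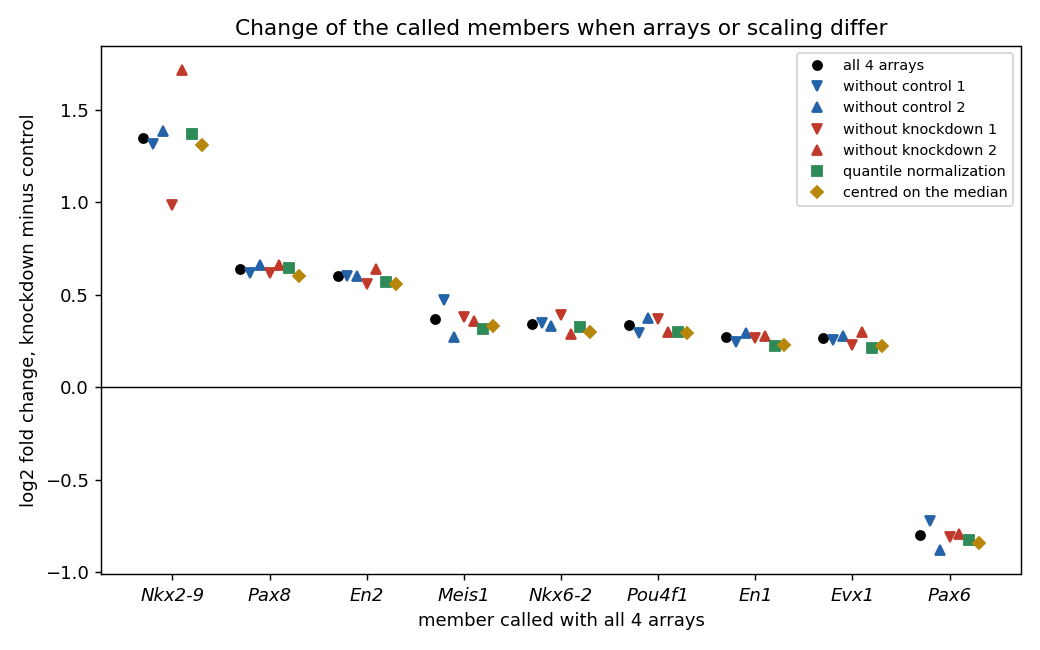
Log2 fold change of the 9 called genes with all 4 arrays, without each array in turn and under the other scalings. Nkx2-9 moves most, from 0.99 to 1.72, and no gene crosses 0.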

How the data were processed

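The values are the authors' deposited log2 expression of 35557 probe sets on 4 arrays. They come from Affymetrix Expression Console according to the submitters' processing notes, with its version, background step, summary method and scaling not given in the sources used here. The log2 scale was read from the values, and the number of arrays limits the precision. Arrays were grouped by their titles. Probe sets with 1 symbol in the platform annotation (21789) gave 19938 genes, each by its brightest probe set. Knockdown was compared with control by limma 3.58.1 in R 4.3.3 (lmFit and eBayes on group alone, two-sided, with Benjamini-Hochberg adjustment over all genes and a threshold of 0.05), and SE is limma's moderated one. On simulated data of this comparison and 19938 genes, limma recovered 0 of 50 genes simulated with a 1.25-fold change, 23 of 50 with 1.5-fold, 41 of 50 with 2-fold and 47 of 50 with 3-fold, and it called 2 unchanged genes. Far fewer genes were changed in that simulation than the 2431 called in the data, which makes the Benjamini-Hochberg cut stricter there. Its recovery therefore cannot tell what share of small changes was found in the data. The called genes En1 and Evx1 had fold sizes of only 1.21 and 1.20. Promoter windows came from RefSeq (GRCm38.p6), and a planned search of protein sequences was not run. The text names every regulator, with array values for called genes and for the most changed and the brightest of each family, and up to 6 called genes per direction of the second homeobox list. Array values of Nkx2-5, Pax3, Irx3, Cdx4, Pitx3 and Emx2 go beyond that rule and were chosen after their values were seen. The regulators and lists were chosen with earlier results of these data known. Alternatives were the replicate block, leaving out each array, 2 scalings, a filter on low values (mean log2 above 8.52), other rules for probe sets, other priors and other thresholds.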

Additional observations from a re-analysis of the deposited data

How the results depend on the processing

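The 56 regulators gave 8 higher and 1 lower calls, and 0 and 0 with the replicate block. Without each array in turn the range was 0 to 0 for higher and for lower calls of the regulators, of the other homeobox genes (7 and 4 with all arrays) and of all genes (997 and 1434). The replicate block likewise gave 0 for both other sets, with 5411 genes at an unadjusted p under 0.05. These fits leave 1 residual degree of freedom. Control replicate 1 and knockdown replicate 1 correlated over genes at 0.0954 in their deviations from the group means. With 2 arrays per group the deviations of replicate 2 mirror these, so this single value cannot tell whether the arrays were paired. The main fit did not pair them. Kdm2b stood at -1.50 with the block (adjusted p = 0.127, limma) and from -1.55 to -1.45 without each array. Higher calls among the regulators were 5 under quantile normalization, 5 with arrays centred on the median, and 3 with at least 1.5-fold in addition. That fold left 4 higher and 1 lower of the other homeobox genes, and 240 and 447 of all genes. At an adjusted p under 0.1 there were 12 higher and 1 lower among the regulators, 13 higher among the other homeobox genes, and 1920 higher and 2236 lower among all. The median of the regulators was 0.12, 0.082 under quantile normalization, 0.08 with arrays centred and from 0.105 to 0.1525 without each array, where the median of all genes went from 0.03 to 0.0075 and -0.01 under those scalings, and 0 called regulators changed direction.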
